A study of Homo sapiens with 4 samples.

Results

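The subunits of Polycomb repressive complex 2 (PRC2) were followed in IMR90, a line of human lung fibroblasts, after siRNA-mediated knockdown of HMGB1, a DNA-bending chromatin protein. The genes were chosen by name as the core and accessory subunits of the complex, and 10 of the 63677 genes in the count files are described: EZH1, EZH2, EED, SUZ12, RBBP4, RBBP7, MTF2, PHF19, JARID2 and AEBP2. Poly(A) RNA was sequenced from 2 control libraries, transfected with a non-targeting siRNA, and from 2 HMGB1 knockdown libraries, transfected with siRNA against HMGB1, all at passage 5 and 72 h after transfection with RNAiMAX. In each group replicate 1 was the isolate I90-10 and replicate 2 the isolate I90-79, grown in MEM with serum. Only these 2 isolates of 1 cell type were used, and transient siRNA lowers a transcript without deleting its gene.

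PRC2 places methyl groups on lysine 27 of histone H3, and the trimethylated mark is typical of silent developmental genes. EZH1 and EZH2 are the alternative catalytic subunits, SUZ12 is the scaffold, EED binds the mark that the complex itself makes, and RBBP4 and RBBP7 are histone-binding proteins shared with other chromatin complexes. The Polycomb-like proteins MTF2 and PHF19 belong to the form called PRC2.1, whereas JARID2 and AEBP2 belong to the form called PRC2.2. PRC1 and PR-DUB are the Polycomb complexes that place and remove ubiquitin on histone H2A.

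The libraries held 29869338 and 35317010 counted reads in the control and 29861687 and 31086475 upon HMGB1 knockdown. Levels are given as CPM, counted reads scaled to a common library total with TMM-adjusted library sizes, which allow for differences in composition. HMGB1 itself was measured at 181.2 and 237 CPM in the control libraries and at 15.96 and 18.86 CPM in the knockdown libraries, replicate 1 first here and throughout. Its log2 fold change was −3.59 (SE 0.19, adjusted p = 0.0075), so both knockdown libraries carried the loss that their labels state. Groups were compared with edgeR's quasi-likelihood test over the 15398 genes that passed a low-count filter, and calls needed both a Benjamini-Hochberg adjusted p under 0.01 and a log2 fold change beyond 0.6 in size. Because each isolate was present in both groups, every test was also fitted with the isolate as a replicate block. The blocked value is given where it changes the call of a gene named here. With 2 cultures a group, p-values without the block rest on the spread between these cultures. Those with the block rest on the spread left once the difference between the isolates is taken out. Both fits also draw on the spread of other genes.

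The fibroblast identity of the cells was checked against marker genes. All 12 fibroblast markers were tested. The most abundant in control was COL1A1, a collagen chain, at 12560 and 5665 CPM in control and at 10570 and 5823 CPM in knockdown libraries. Upon knockdown COL3A1, another collagen chain, had the higher mean, 8630 against 8198 CPM. The summed level of the 12 markers was 41380 and 22420 CPM in control and 39640 and 24710 CPM in knockdown libraries, higher in isolate I90-10 in both groups. Without the block 0 of the 12 were called and DESeq2 called 0. At an unadjusted p below 0.05, 2 were higher and 0 lower, against 13.6% and 14.7% of all genes. The blocked fit called 1 up and 2 down, against 6.68% and 7.84% of all genes. THY1, a surface glycoprotein, and PDGFRB, a growth factor receptor, were down (log2 fold changes −0.99 and −0.68, adjusted p = 0.00031 and 0.0026). LUM, the proteoglycan lumican, was up (0.83, adjusted p = 0.0029). On leaving out each library THY1 ranged from −1.74 to −0.31, PDGFRB from −1.15 to −0.14 and LUM from 0.50 to 1.16. Of 6 epithelial markers KRT5, KRT14 and SCGB1A1 had 0 reads in every library, and the list, most abundantly EPCAM, summed to at most 0.7149 CPM. The 5 haematopoietic markers, of which CD3E had 0 reads and CD14 was the most abundant, summed to at most 0.2078 CPM. Among 5 endothelial markers CDH5, the endothelial cadherin, had 0 reads, and the list summed to 150.1 and 149.3 CPM in control and 135.7 and 136 CPM in knockdown libraries, nearly all of it TEK, a receptor kinase at 148.5 and 147.6 CPM in control and 131.3 and 131.8 CPM in knockdown libraries. VWF, the von Willebrand factor, was low but higher in both knockdown libraries, at 1.362 and 0.9227 CPM in control and 4.155 and 2.594 CPM in knockdown libraries, and was called up with the block (log2 fold change 1.55, adjusted p = 0.0036). The part of cell identity in the differences described here was not tested.

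JARID2, EZH2 and SUZ12 were the members with lower levels in both knockdown libraries than in either control library, whereas RBBP4 and RBBP7 were higher in both, and the other 5 overlapped between the groups. Without a term for the isolate, no member was called in either direction, where 0.0649% of all genes were called up and 0.136% down. When the isolate entered as a replicate block, 0 members were called up and 3 down (JARID2, EZH2 and SUZ12), against 6.68% of all genes up and 7.84% down. DESeq2 without the block called 0 up and 1 down (JARID2), against 4.73% and 5.31% of all genes. At an unadjusted p below 0.05 without the block, RBBP7 was higher and JARID2, EZH2 and SUZ12 were lower, so 1 and 3 of 10 members, against 13.6% and 14.7% of all genes. Groups without overlap were found for 2 members in the upward and 3 in the downward direction, against 29.8% and 30.2% of all genes. The median log2 fold change of the 10 members was 0.07, and it was −0.01 over all genes tested.

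**Figure D1:**
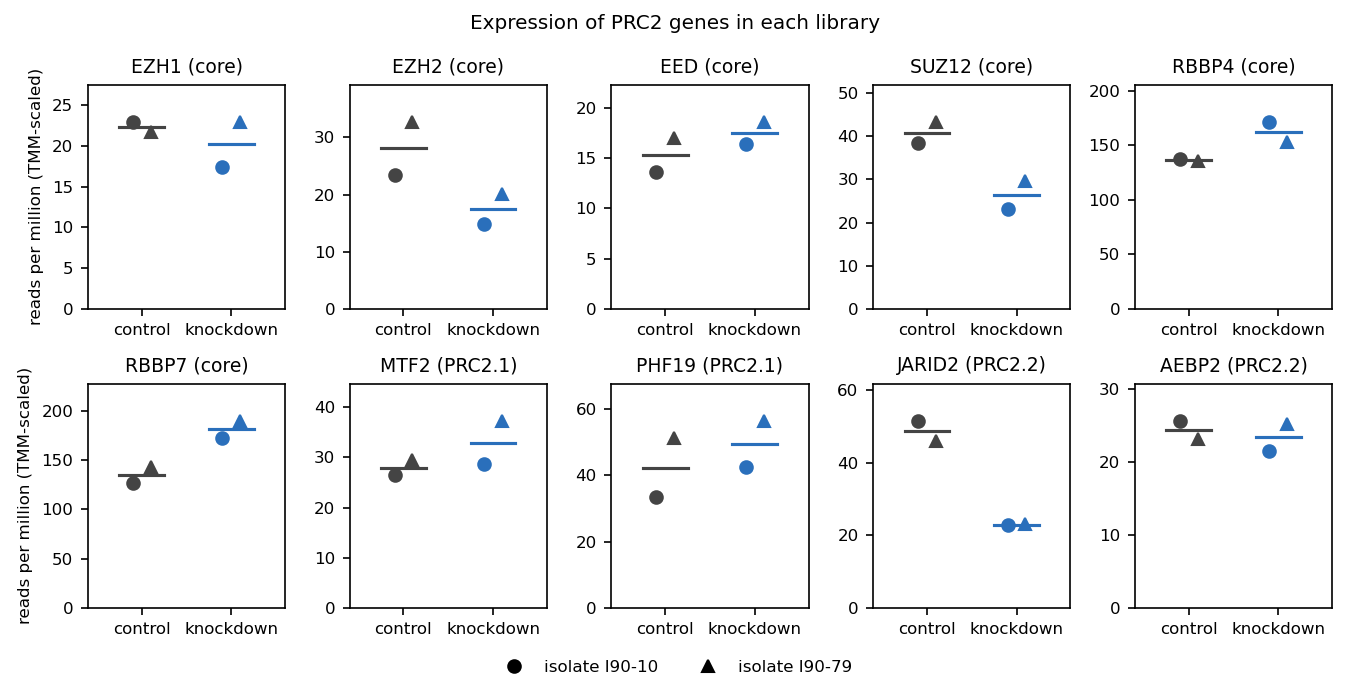
Level of each PRC2 gene (vertical axis, TMM-scaled CPM, starting at 0) in the 2 control and the 2 HMGB1 knockdown libraries. Circles are isolate I90-10, triangles isolate I90-79, and horizontal lines are group means; the 2 JARID2 knockdown points, at 22.96 and 23.06, lie far below the control points at 51.54 and 46.19.

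JARID2 (ENSG00000008083, hg19 chr6:15246527-15522252, plus strand), the PRC2.2 subunit that helps to bring the complex to chromatin, showed the largest change among the members. Its level was 51.54 and 46.19 CPM in the control libraries, from 1514 and 1702 reads, and 22.96 and 23.06 CPM upon knockdown, from 663 and 720 reads. Both knockdown libraries lay below both controls, and the change had the same direction in isolate I90-10 (log2 fold change −1.17) and isolate I90-79 (−1.0). The fitted log2 fold change was −1.09 (SE 0.12), 2.123-fold lower in the knockdown, with an adjusted p of 0.0149 by edgeR's quasi-likelihood test that missed the threshold of 0.01. The blocked fit called JARID2 down (log2 fold change −1.08, SE 0.11, adjusted p = 0.00027), and over the alternatives that kept all 4 libraries its adjusted p ranged from 3.5e-08 to 0.015. AEBP2 (ENSG00000139154, chr12:19556979-19873735, plus strand), the other PRC2.2 subunit, was measured at 25.6 and 23.18 CPM in control and at 21.47 and 25.26 CPM in knockdown libraries. Its groups overlapped and its log2 fold change was −0.06 (SE 0.15, adjusted p = 0.822 in edgeR).

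EZH2 (ENSG00000106462, chr7:148504475-148581413, minus strand), the catalytic subunit that is more abundant in dividing cells, was at 23.42 and 32.73 CPM in control and at 14.79 and 20.11 CPM in knockdown libraries. In each group isolate I90-79 was the higher, and the groups did not overlap. The log2 fold change was −0.69 (SE 0.24, adjusted p = 0.136 in edgeR), and with the replicate block it was −0.68 (SE 0.11, adjusted p = 0.0028), which was called. Its adjusted p ranged from 0.00015 to 0.139 over the alternatives with all 4 libraries. Within the isolates the log2 fold change was −0.66 in I90-10 and −0.70 in I90-79. In RNA from whole cultures, fewer cells expressing a gene and less RNA per cell cannot be told apart.

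Proliferation genes were read beside EZH2, since its level is known to follow the cell cycle. The 20 genes of that list summed to 880.3 and 1563 CPM in control and 1099 and 1374 CPM in knockdown libraries, so the groups overlapped and the isolate I90-79 was higher in both. Their log2 fold changes were above 0 for 13 and below 0 for 7, with a median of 0.21. TOP2A, the topoisomerase of dividing cells, was the most abundant in control, though not upon knockdown. It was at 123.3 and 235.2 CPM in control and at 102.5 and 140.4 CPM in knockdown libraries. MKI67, which encodes the Ki-67 antigen, was at 123.2 and 214.1 CPM in control and at 102.9 and 130.6 CPM in knockdown libraries. Of the 20, edgeR called 0 without the block and DESeq2 1 down and 0 up. At an unadjusted p below 0.05, 1 was higher and 1 lower, against 13.6% and 14.7% of all genes. With the block MCM7 (a replication helicase subunit, log2 fold change 1.01, adjusted p = 0.0012) and TYMS (thymidylate synthase, 0.65, adjusted p = 0.0073) were called up. PCNA (the replication clamp, −0.99, adjusted p = 0.00061) was called down. Over all genes, 6.68% were called up with the block and 7.84% down. Of TYMS exonic bases 26.2% overlap other genes. The part of cell division in the EZH2 difference was not tested.

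EZH1 (ENSG00000108799, chr17:40852293-40897071, minus strand), the catalytic subunit typical of resting cells, was at 22.91 and 21.74 CPM in control and at 17.42 and 22.96 CPM in knockdown libraries. One knockdown library lay below both controls and the other above both, and the log2 fold change was −0.14 (SE 0.18, adjusted p = 0.633 in edgeR). Set per kilobase of annotated exon, EZH2 exceeded EZH1 by 1.581-fold and 2.328-fold in control and by 1.313-fold and 1.354-fold in knockdown libraries. The length counts every annotated exon of a gene, not the transcripts present, so levels of different genes compare only roughly. The log2 ratio of EZH2 to EZH1 was 0.94 ± 0.39 (SD, n = 2) for the controls and 0.41 ± 0.03 (SD, n = 2) for the knockdown, a difference of −0.52 in the ratio, which became −0.80 when control replicate 1 was left out and −0.25 when control replicate 2 was. Both knockdown ratios were below both control ratios, but an exact permutation test, two-sided, gave p = 0.333, the smallest that 2 against 2 libraries allow.

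SUZ12 (ENSG00000178691, chr17:30264037-30328064, plus strand) was at 38.37 and 43.37 CPM in control and at 23.16 and 29.65 CPM in knockdown libraries. Both knockdown libraries were lower than both controls. The log2 fold change was −0.63 (SE 0.17, adjusted p = 0.0795 in edgeR) and with the replicate block −0.64 (SE 0.11, adjusted p = 0.0032), which was called, with −0.73 in I90-10 and −0.55 in I90-79. Over the alternatives with all 4 libraries its adjusted p ranged from 0.00076 to 0.0818. Other genes share 7.94% of the 50-base pieces of SUZ12 transcripts, so part of its reads could have been left out as not unique. EED (ENSG00000074266, chr11:85955586-85989855, plus strand), its partner in the core, was at 13.65 and 17.04 CPM in control and at 16.45 and 18.64 CPM in knockdown libraries. The EED groups overlapped, with a log2 fold change of 0.19 (SE 0.18, adjusted p = 0.523 in edgeR). Per kilobase of annotated exon, again a rough comparison, SUZ12 stood at 3.012 and 2.727 times EED in control and 1.509 and 1.705 times in knockdown libraries.

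RBBP7 (ENSG00000102054, chrX:16857406-16888537, minus strand) was at 126.4 and 143.4 CPM in control and at 172.8 and 189.5 CPM in knockdown libraries, and both knockdown libraries were higher than both controls. Its log2 fold change was 0.43 (SE 0.13, adjusted p = 0.103 in edgeR); with the replicate block the adjusted p was 0.0094, but the size of the change stayed under 0.6, so RBBP7 was not called. RBBP4 (ENSG00000162521, chr1:33116743-33151812, plus strand) was at 137.3 and 135.8 CPM in control and at 171.3 and 152.6 CPM in knockdown libraries, with a log2 fold change of 0.25 (SE 0.12, adjusted p = 0.238 in edgeR). Of RBBP4 exonic bases 22.8% overlap another gene on the opposite strand, and 25.2% of its 50-base pieces occur in other transcripts, so its level is less certain than that of the other members.

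The PRC2.1 proteins overlapped between the groups. MTF2 (ENSG00000143033, chr1:93544792-93604638, plus strand) was at 26.45 and 29.44 CPM in control and at 28.67 and 37.24 CPM in knockdown libraries, a log2 fold change of 0.24 (SE 0.17, adjusted p = 0.408 in edgeR). PHF19 (ENSG00000119403, chr9:123617977-123639606, minus strand) was at 33.5 and 51.26 CPM in control and at 42.45 and 56.39 CPM in knockdown libraries, and isolate I90-79 was higher in each group. Its log2 fold change was 0.22 (SE 0.25, adjusted p = 0.605 in edgeR).

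**Figure D2:**
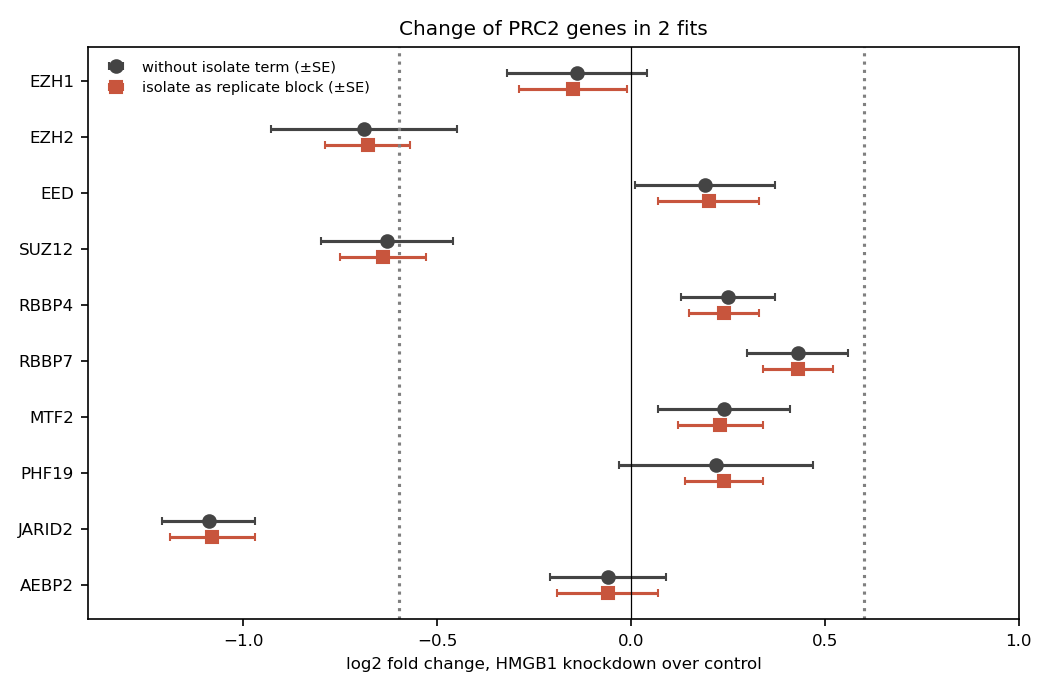
Log2 fold change of each PRC2 gene, HMGB1 knockdown over control, from edgeR without a term for the isolate (circles) and with the replicate block (squares); bars are ±SE and dotted lines mark the threshold of 0.6 in each direction. The estimates of the 2 fits lie close together, while the SE of EZH2 narrows from 0.24 to 0.11, and JARID2, EZH2 and SUZ12 lie beyond the lower threshold.

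Within a group, levels per kilobase of annotated exon ranked the subunits, but only roughly, since the length counts every annotated exon. In control, RBBP7 (18.25) and RBBP4 (14.42) stood above JARID2 (7.529), PHF19 (6.473), SUZ12 (6.242), EZH2 (6.208), AEBP2 (5.391), MTF2 (4.73), EZH1 (3.193) and EED (2.187), as means of 2 libraries in CPM per kilobase. Neighbours in this order from JARID2 through PHF19, SUZ12 and EZH2 to AEBP2 did not differ beyond their spread, the SD being 1.919 for PHF19 and 1.455 for EZH2. Upon knockdown JARID2 was at 3.545 and the order below RBBP7 and RBBP4 became PHF19 (7.548), MTF2 (5.577), AEBP2 (5.165), SUZ12 (4.034), EZH2 (3.858), JARID2, EZH1 (2.887) and EED (2.5). In the knockdown the neighbours SUZ12, EZH2 and JARID2 did not differ beyond their spread (SD 0.7006 for SUZ12 and 0.8325 for EZH2), so their order among themselves is not resolved. The same held for MTF2 and AEBP2 (SD 1.026 for MTF2) and for EZH1 and EED (SD 0.5605 for EZH1). Against AEBP2, JARID2 stood at 1.403 and 1.389 times its level per kilobase in control and at 0.7454 and 0.6361 times in knockdown libraries. Summed per kilobase, the PRC2.2 proteins were set over the PRC2.1 proteins (with PHF1, another Polycomb-like protein). The ratio was 0.5873 and 0.4409 in control and 0.3252 and 0.3038 in knockdown libraries. For the log2 difference of −0.70 the exact permutation test, two-sided and again without pairing the isolates, gave its smallest p of 0.333. PHF1, which is not a member, was the largest term of the PRC2.1 sum, at 14.26 in control and 14.65 upon knockdown.

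Promoters are shown for the 3 members that were lower in both knockdown libraries than in either control, a pattern that 30.2% of all genes had. They are RefSeq windows on GRCh38.p14, 300 bases each around a start site, and RefSeq lists 15 windows for the 10 members. Capitals mark CCAAT boxes (CCAAT on either strand, hence ATTGG) and 4 words of the E2F motif (TTTCCCGC, TTTCGCGC, TTTGCCGC and TTTGGCGC, on either strand).
JARID2, chr6:15245819-15246118, plus strand: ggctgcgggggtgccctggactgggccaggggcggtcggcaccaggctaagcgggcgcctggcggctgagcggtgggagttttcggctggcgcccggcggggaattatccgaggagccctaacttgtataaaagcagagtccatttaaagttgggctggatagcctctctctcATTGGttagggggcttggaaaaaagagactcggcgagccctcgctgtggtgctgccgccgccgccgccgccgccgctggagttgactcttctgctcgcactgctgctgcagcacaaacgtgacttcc
EZH2, chr7:148884242-148884541, minus strand: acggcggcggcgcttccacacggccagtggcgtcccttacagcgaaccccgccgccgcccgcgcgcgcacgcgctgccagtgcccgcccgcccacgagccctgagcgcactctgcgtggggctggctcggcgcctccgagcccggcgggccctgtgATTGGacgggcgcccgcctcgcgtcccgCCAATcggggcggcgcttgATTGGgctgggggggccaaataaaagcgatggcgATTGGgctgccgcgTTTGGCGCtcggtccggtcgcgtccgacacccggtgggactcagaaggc
SUZ12, chr17:31936757-31937056, plus strand: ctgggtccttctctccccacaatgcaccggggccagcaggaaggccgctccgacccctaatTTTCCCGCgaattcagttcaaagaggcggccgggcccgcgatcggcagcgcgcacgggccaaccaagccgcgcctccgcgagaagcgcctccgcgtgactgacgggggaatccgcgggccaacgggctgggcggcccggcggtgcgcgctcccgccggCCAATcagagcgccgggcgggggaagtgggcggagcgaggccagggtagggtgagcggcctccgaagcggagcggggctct
The EZH2 window shown held 4 CCAAT boxes and 1 E2F word, while the other EZH2 window, at chr7:148883436-148883735, held 0 of either. The SUZ12 window held 1 of each, whereas the JARID2 windows held no E2F word. Among the 15 windows of the members, 10 held CCAAT and 6 held an E2F word, compared with 34.6% and 3.31% of 35116 windows of all genes. Members with an E2F word included EZH1, AEBP2, MTF2 and PHF19, which overlapped between the groups. The letters are a description of these windows, and binding was not measured.

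The 3′ UTRs of the members were read for the 6-base word GCAGTT, which had been picked in an earlier search of these same libraries for words over-represented in genes with lower levels, so its relation to the fold changes is a description with no test. Sites of the word are shown with 12 bases on each side, the word in capitals, in hg19 coordinates from the 3′ UTR of one transcript per gene.
JARID2 site 1, chr6:15521482-15521511, plus strand: actaggaggcctGCAGTTatttttgaatgt
EZH2 site 1, chr7:148504633-148504662, minus strand: gaaaaagaacatGCAGTTtgaaattctgaa
SUZ12 site 1, chr17:30327069-30327098, plus strand: acgcacatatttGCAGTTggattttctcca
SUZ12 site 2, chr17:30327292-30327321, plus strand: ccaccatcagatGCAGTTccctattttgtt
SUZ12 site 3, chr17:30327710-30327739, plus strand: gtcatttcttaaGCAGTTatgctcttaatg
EZH1 site 1, chr17:40854193-40854222, minus strand: gaatcaacttagGCAGTTcccaacaagcgc
AEBP2 site 1, chr12:19672563-19672592, plus strand: atataaaaaccaGCAGTTtttacactaaat
JARID2, EZH2, EZH1 and AEBP2 each held 1 copy, in 3′ UTRs of 1794, 266, 2260 and 4113 bases, and SUZ12 held 3 in 2038 bases. EED, RBBP4, RBBP7, MTF2 and PHF19 held 0 copies, although the 3′ UTR of RBBP4 spans 6509 bases. The 5 members with the word had log2 fold changes below 0 (median −0.63) and the 5 without it above 0 (median 0.24), though EZH1 and AEBP2 turned positive without knockdown replicate 1, AEBP2 also without control replicate 1, and PHF19 turned negative without control replicate 1 and in DESeq2 after RUVs, which estimates a factor of unwanted variation from replicates. Over all 12769 tested genes with a 3′ UTR, the share with a log2 fold change below 0 was 42.7% at 0 copies, 58.3% at 1, 67.9% at 2 and 69.7% at 3 or more. In 3′ UTRs of 1 to 500 bases, the class of EZH2, it was 41.2% without and 68.6% with the word, and in those of 1501 to 3000 bases, the class of JARID2 and SUZ12, 45.5% and 64.8%. The shares were 42.8% and 66.5% at 501 to 1500 bases and 41.6% and 58.7% in longer 3′ UTRs than 3000 bases, the class of AEBP2 and RBBP4. Among the developmental regulators, a list of PRC2 targets, 2 of 5 tested genes with the word and 0 of 6 without it were below 0, while the medians were 0.58 with and 0.46 without it. The HMGB1 3′ UTR held 3 copies. Why the share moves with the word was not tested.

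**Figure D3:**
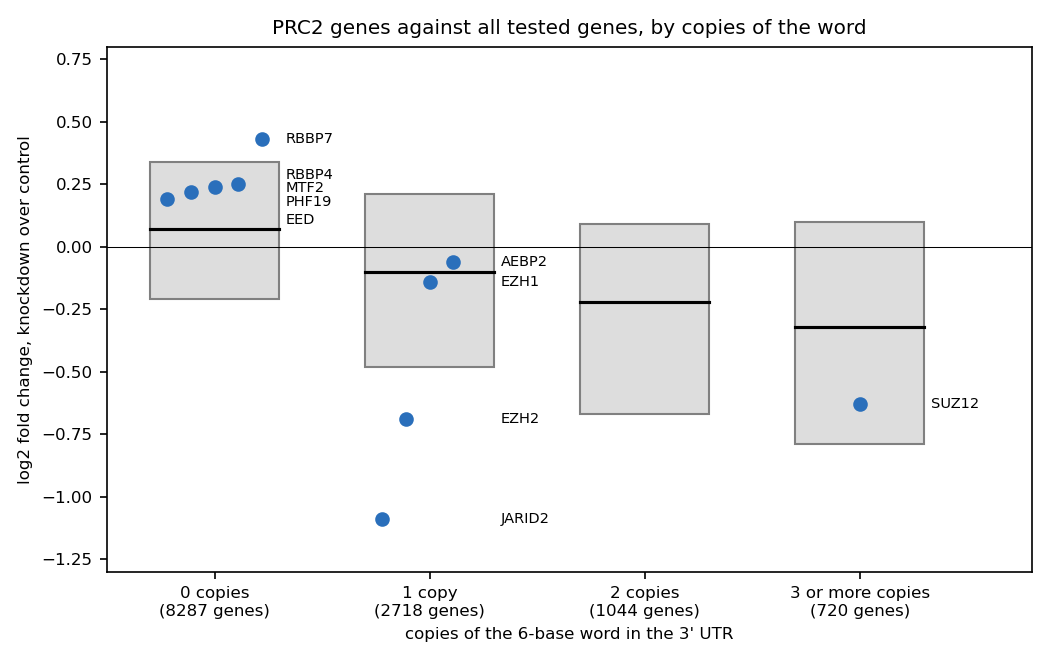
Log2 fold change upon HMGB1 knockdown (vertical axis) by number of copies of the 6-base word in the 3′ UTR; grey boxes span the quartiles of all tested genes in each class, black lines are their medians (0.07, −0.10, −0.22 and −0.32), and blue points are the PRC2 genes. Points at 0 copies lie above 0 and the others below it.

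Other genes tied to PRC2 were read from lists. Of the remaining PRC2-associated genes, LCOR was at 16.41 and 17.77 CPM in control and at 8.483 and 13 CPM in knockdown libraries (log2 fold change −0.67, adjusted p = 0.145 in edgeR), and LCORL, its paralog, had a log2 fold change of −0.81 (adjusted p = 0.15), with 16.3% of its exonic bases overlapping another gene. PHF1 had a log2 fold change of 0.04 and EZHIP 0 reads. In this list edgeR called 0 genes with or without the block and DESeq2 0. At an unadjusted p below 0.05, 0 were higher and 2 lower, against 13.6% and 14.7% of all genes. KDM6A and KDM6B, which remove the methyl marks on lysine 27, had log2 fold changes of −0.18 and 0.61. KDM6B was at 69.35 and 79.35 CPM in control and 103.5 and 123.1 CPM in knockdown libraries (adjusted p = 0.0615 in edgeR), and with the replicate block it was called up (adjusted p = 0.0021). The acetyltransferases EP300 and CREBBP had log2 fold changes of 0.22 and 0.11.

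PRC1 followed with 25 of 26 listed genes tested. In edgeR 0 were called without the block. At an unadjusted p below 0.05, 1 was higher and 4 lower, against 13.6% and 14.7% of all genes. With the block 4 were called down and 0 up, where 7.84% of all genes were called down. DESeq2 called 3 down and 0 up, where 5.31% of all genes were called down. RYBP, a subunit of variant PRC1, was at 57.53 and 50.2 CPM in control and at 27.84 and 24.59 CPM in knockdown libraries (log2 fold change −1.04, adjusted p = 0.02 in edgeR). YAF2, its paralog, had a log2 fold change of −1.18 (adjusted p = 0.0265), and SCML2, a Polycomb protein read at only 30 and 52 counts in the knockdown libraries, one of −1.61 (adjusted p = 0.0494). The fourth was E2F6, with −0.65 (adjusted p = 0.0867). With the replicate block the adjusted p was 0.00026 for RYBP, 0.0013 for YAF2, 0.0023 for SCML2 and 0.0052 for E2F6. Both knockdown libraries were below both controls for these 4, a pattern that 10 of the 25 PRC1 genes and 30.2% of all genes had. The ubiquitin ligases RING1 and RNF2 had log2 fold changes of −0.12 and −0.19, and the list's median was −0.13. Of 8 PR-DUB genes (median −0.14) 0 were called by edgeR in either fit and 0 by DESeq2. At an unadjusted p below 0.05, 1 was higher and 2 lower, against 13.6% and 14.7% of all genes. The smallest p values were those of ASXL2 (0.49), MBD5 (−0.40) and ASXL1 (−0.28, log2 fold changes).

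**Figure D4:**
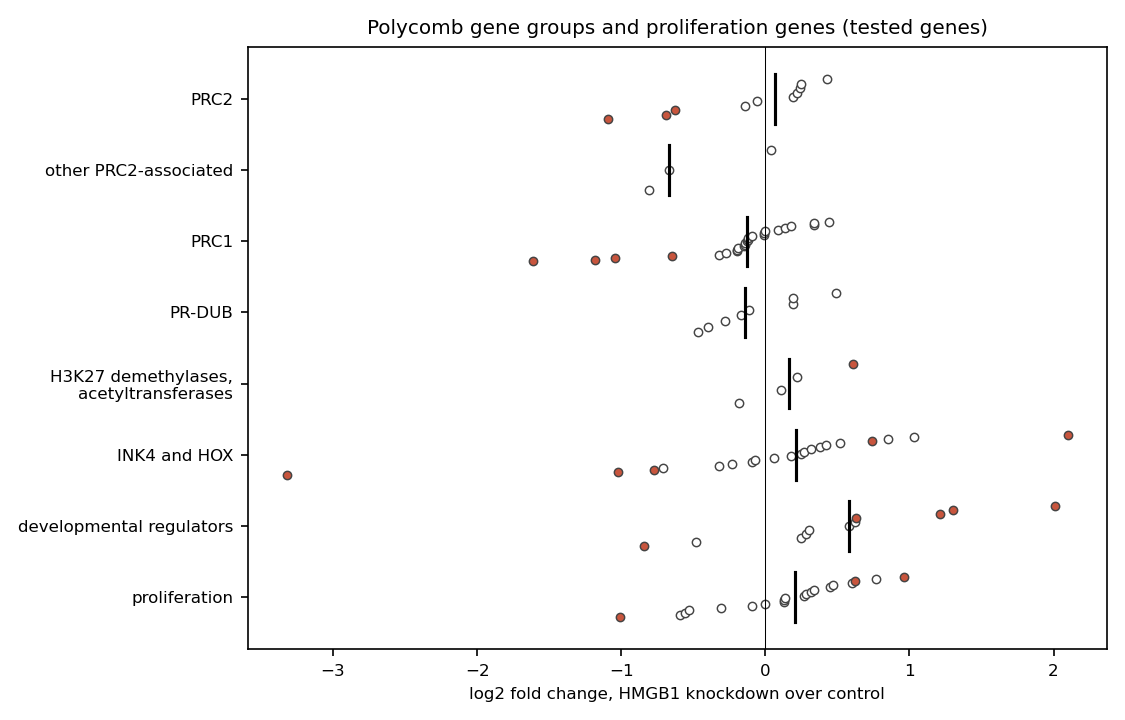
Log2 fold change of each tested gene upon HMGB1 knockdown (horizontal axis) in PRC2, the other Polycomb lists, the INK4 and HOX loci, developmental regulators and proliferation genes; vertical bars are list medians and filled points were called in the blocked fit. CDKN2B lies at 2.10 and HOXA9 at −3.32, both in the INK4 and HOX list.

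Loci known as PRC2 targets were read last, though binding of PRC2 was not measured in these libraries. Of 41 genes of the INK4 and HOX loci, 20 were tested, 15 had 0 reads in every library, among them every listed HOXD gene, and the median log2 fold change was 0.21. CDKN2B, which encodes the kinase inhibitor p15, was at 34.83 and 38.43 CPM in control and at 153.2 and 160.7 CPM in knockdown libraries. In edgeR without the block it was the only gene called in this list, up with a log2 fold change of 2.10 (SE 0.12, adjusted p = 0.0075), whereas DESeq2 called 2 up and 3 down in the list, where 4.73% and 5.31% of all genes were called. CDKN2A, its neighbour, was at 41.5 and 32.89 CPM in control and at 63.36 and 43.45 CPM in knockdown libraries (log2 fold change 0.52, adjusted p = 0.202). At an unadjusted p below 0.05 without the block, 2 genes of the list were higher and 4 lower, against 13.6% and 14.7% of all genes. With the replicate block 2 were called up and 3 down, against 6.68% and 7.84% of all genes. Called up were CDKN2B (log2 fold change 2.10, adjusted p = 1.9e-05) and HOXB6 (0.73, adjusted p = 0.0029). HOXA3 (−1.01, adjusted p = 0.0033), HOXB3 (−0.77, adjusted p = 0.0011) and HOXA9 (−3.35, adjusted p = 0.0047) were called down. HOXA9 was read at only 34 and 45 counts in control and 1 and 6 in knockdown libraries, and 32.1% of its exonic bases overlap other genes. The same share was 17.9% for HOXA3, 21% for HOXB6 and 13.2% for HOXB3. HOXB6 and HOXB3 overlap each other on the same strand, and the levels of these HOX genes are uncertain to that extent.

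Among 32 developmental regulators known as PRC2 targets, 11 were tested, with a median log2 fold change of 0.58. In edgeR 0 were called without the block. At an unadjusted p below 0.05, 4 were higher and 2 lower, against 13.6% and 14.7% of all genes. With the block 4 were called up and 1 down, against 6.68% and 7.84% of all genes. DESeq2 called 2 up and 1 down, against 4.73% and 5.31% of all genes. TBX5, a transcription factor of heart and limb, was at 12.46 and 11.91 CPM in control and at 29.64 and 26.93 CPM in knockdown libraries (log2 fold change 1.21, adjusted p = 0.0151 in edgeR, and 0.00027 with the replicate block). With the block BMP2 and WNT5A, secreted ligands, had log2 fold changes of 1.95 and 1.33 (adjusted p = 4e-05 and 0.00013), and TBX3, a T-box factor, one of 0.63 (adjusted p = 0.0016). MEIS1, a homeobox transcription factor, had a log2 fold change of −0.48 and was not called. Histone methylation was not measured in these libraries, so whether any of these changes goes with a change in the mark was not tested.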

How the data were processed

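RNA-seq counts were obtained from IMR90 libraries (poly(A) RNA, TruSeq, paired-end). Per the labels and the study's methods, the authors mapped reads to hg19 with STAR and deposited raw counts of unique reads per gene from featureCounts, without normalization. Tool versions, strand setting and how pairs were counted are not given in the sources used here, so antisense overlaps remain uncertain. Library totals were 29869338 to 35317010 counts.

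edgeR 4.0.16 (R 4.3.3, limma 3.58.1) was applied to all 4 libraries with filterByExpr, TMM and the quasi-likelihood test. Log2 fold changes are given with SE, and p was adjusted over all 15398 genes tested. Replicate numbers pair the samples, since each number is one isolate; across genes, differences between replicates in the 2 groups had a correlation of 0.464. The fit was also made with the isolate as a replicate block. Alternatives were DESeq2 1.42.0, RUVs with 1 factor then DESeq2 (written from its published description), DESeq2 size factors, no low-count filter, at least 10 reads in every library, an adjusted p below 0.05, bias-adjusted deviances, and leaving out each library. Exon overlaps, 50-base pieces and 3′ UTRs came from GENCODE v44 lifted to hg19, and promoters from RefSeq. The main and blocked fits were tested on simulated data.

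Members and lists were chosen with earlier results of these data known. Of 176 listed genes 173 were matched to an identifier. Named genes were every member, HMGB1, the 3 genes of each other list with the smallest p and any gene called there, and lists of up to 6 genes whole, while cell type markers were given by list sums, their most abundant gene and genes with 0 reads. E2F6, RING1, RNF2, CDKN2A, HOXB3, HOXB6, BMP2, TBX3, WNT5A, MKI67, TOP2A, COL3A1, THY1, PDGFRB, LUM and VWF were named after their values were seen. One gene that the rule names among the developmental regulators is not reported here by name.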

Additional observations from a re-analysis of the deposited data

Results flagged for a closer look

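EZH1 and AEBP2 moved in opposite directions in the 2 isolates. The EZH1 log2 fold change was −0.40 in I90-10 and 0.08 in I90-79, a difference of 0.47, and that of AEBP2 was −0.25 and 0.12, a difference of 0.38 (both from unrounded values). With 1 library per isolate and group, neither difference was tested. The other 8 members had the same direction in both isolates.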

How the results depend on the processing

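The 3 members called down with the replicate block, by RUVs with DESeq2 and with no low-count filter were EZH2, SUZ12 and JARID2 each time. The block moved the count of members called down from 0 to 3. DESeq2 alone called 1, and 1 passed in edgeR at an adjusted p below 0.05 with any fold change (JARID2 in both). At that last threshold 1299 of all 15398 genes tested passed, in either direction. Leaving out each library, where the lone library of a group is assumed to vary like the other group, gave 0 to 1, JARID2 being called without control replicate 2. No member was called up under any alternative run. Over all genes, calls up and down were 10 and 21 without the block, 1028 and 1207 with it, 728 and 818 by DESeq2, 763 and 830 by RUVs with DESeq2, 1118 and 1275 with no filter, 6 and 16 at 10 reads or more, 30 and 68 with bias-adjusted deviances, and 118 and 181, 305 and 337, 0 and 0, and 0 and 0 without control replicate 1, control replicate 2, knockdown replicate 1 and knockdown replicate 2. In the other Polycomb lists taken with the INK4 and HOX loci and the developmental regulators, the block moved the calls from 1 to 15. Tested genes numbered 3 (other PRC2-associated), 4 (lysine 27 demethylases and acetyltransferases), 25 (PRC1), 8 (PR-DUB), 20 (INK4 and HOX) and 11 (developmental regulators). Over all genes, the block moved the calls from 0.0649% up and 0.136% down to 6.68% up and 7.84% down. JARID2 kept a log2 fold change between −1.16 and −1.01 on leaving out each library, with an adjusted p of 0.0065 to 0.0818, and EZH2 ranged from −0.92 to −0.42 and SUZ12 from −0.82 to −0.46. Signs turned for EZH1 (0.04 without knockdown replicate 1, in a range of −0.35 to 0.04), PHF19 (−0.03 by RUVs with DESeq2, −0.05 without control replicate 1, in a range of −0.05 to 0.56) and AEBP2 (0.01 without control replicate 1, 0.05 without knockdown replicate 1, in a range of −0.18 to 0.05), and the causes were not tested. The median of the members lay between −0.09 and 0.10 on leaving out each library, and the EZH2 to EZH1 difference between −0.80 and −0.25. Of 120 values of single members under alternatives, 103 kept direction and side of the threshold. With 2 libraries a group, the standard error without the block was 0.18 for EED (401 to 628 reads in a library) and 0.24 for EZH2 (427 to 1206). With the block it was 0.13 for EED and 0.11 for EZH2.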
